A study of Homo sapiens with 27 samples.

Results

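The 34 genes described here encode proteins that form, limit or dissolve a blood clot. They were chosen by name: a probe was taken for a member where its gene name was the member's symbol or an older alias, or where its transcript belonged to the member. All 34 of 34 were tested on the array platform shared by 8 compounds, among 17418 genes tested there. On the platform of the compound IND 32 of 34 were tested among 14381 genes, since F9 and THBD did not pass the filter on dim probes there. Messenger RNA was measured in HepG2 cells, an established human line from a hepatocellular carcinoma, after 48 h with 1 of 9 polycyclic aromatic hydrocarbons, which are compounds of fused aromatic rings formed when organic matter burns incompletely. The compounds were indeno[1,2,3-c,d]pyrene (IND), benzo[a]pyrene (BaP), dibenzo[a,h]anthracene (DBA), 3-methylcholanthrene (3MC), naphthalene (NP), chrysene (CHR), phenanthrene (PH), benzo[a]anthracene (BA) and benzo[k]fluoranthene (BF). Each had 3 arrays, 27 in all, and on every array the compound's RNA was labelled with Cy5 and RNA from cells that received only the solvent, DMSO, with Cy3. No dose is given in the labels, so the compounds are set side by side as they were applied. The labels do not say that the 3 arrays of a compound came from separate cultures, so p-values measure only the spread between arrays, which may be technical. The dyes were not exchanged, so a dye bias of a probe stays in its ratio.

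Most plasma coagulation factors are made by hepatocytes and secreted as inactive precursors. Tissue factor on a cell surface starts a chain of proteases that ends with thrombin, which turns fibrinogen into fibrin. Antithrombin, tissue factor pathway inhibitor and the protein C system hold the chain in check, and plasmin, made from plasminogen by the activators PLAT and PLAU, dissolves the clot.

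The label of a liver cell line was checked against markers. Of 10 hepatocyte markers 9 stood above background in the DMSO channel on all 24 arrays of the shared platform, and all 10 on the IND arrays. Their summed DMSO signal was 227562 to 398180 intensity units per shared array, against 731 to 1525 for 6 endothelial markers, 1957 to 12120 for 6 platelet markers, 933 to 4731 for 6 macrophage markers and 4484 to 8946 for 6 stellate cell and fibroblast markers. On the IND arrays the sums were 406258 to 453738, 1372 to 1932, 15443 to 18665, 1034 to 1170 and 3814 to 8403 in the same order. These sums cover only the markers tested there, 10, 3, 4, 3 and 3, so they are not of the same sets as on the shared arrays. PECAM1, CDH5, KDR, GP6, CD163, PTPRC and LUM stood above background on 0 of 3 IND arrays. On the shared platform each marker of the 4 other lists stood above background on at least 1 of the 24 arrays. All 6 endothelial, 6 platelet and 6 macrophage markers and 5 of 6 stellate cell and fibroblast markers did so on at least as many arrays as not. Standing above background therefore hardly parted the lists there. The part of other cell types in the ratios below was not tested, and fewer cells of a type cannot be told apart from less RNA per cell. The median signal above background in Cy5 was 36 to 124 units for DBA, 3MC and NP, whose files came in a scanner layout of their own, and 299 to 1484 for the other compounds. Ratios of dim spots are pulled toward 0 by the offset used in background correction. By the rule used for standing above background, 0.319% to 80.9% of the 314 negative control spots of a shared array passed in Cy5, so the rule was lenient on some arrays. Against the 95th percentile of negative controls, 29 of 34 members were brighter in DMSO on all 27 arrays, and the others were F9 and TFPI2 on 22, SERPINB2 on 23, HRG on 24 and PLAUR on 26. BA array 1 stood apart: across genes its log2 ratios correlated at 0.176 and 0.126 with BA arrays 2 and 3, and across the members at 0.124 and 0.102, whereas BA arrays 2 and 3 correlated at 0.861 across genes and at 0.994 across the members. The main BA results are therefore given with and without that array.

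Values below are log2 ratios of compound over DMSO, each mean ± SD over 3 arrays unless arrays are listed. The words rose and fell, and the word passed, are kept for changes of at least 1.5-fold with a limma p under 0.05 after Benjamini-Hochberg adjustment over all genes. Of 304 pairs of a member and a compound, 94 fell, 43 rose and 167 did not pass. The median SD of a pair was 0.07, and 0.306 for the pairs with BA. Of the members, 20 only fell, 7 only rose, 6 rose with some compounds and fell with others, and F9 passed with none. The members that passed with all 9 compounds were CPB2 and PROCR. CPB2, a carboxypeptidase that protects fibrin from dissolution, fell with all 9. PROCR, the cell-surface receptor of protein C, rose with 8 and fell with NP. In limma's F test over the 8 compounds of the shared platform, 33 of 34 members differed at an adjusted p under 0.05, where 89.8% of all genes did; F9 was the exception at an adjusted p of 0.188.

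The number of members that passed varied from 7 with 3MC to 27 with BF. With BF 7 rose and 20 fell, where 36.4% of all genes passed in either direction, 16.1% upward and 20.3% downward. With IND 6 of 32 rose and 17 fell (all genes 23.7%, upward 10.5%, downward 13.2%). With CHR 7 rose and 15 fell (24%, upward 11.8%, downward 12.2%). With BaP 6 rose and 8 fell (25.1%, upward 15.1%, downward 10%). With PH 3 rose and 9 fell (18.5%, upward 10.6%, downward 7.92%). With DBA 4 rose and 10 fell (10.4%, upward 3.07%, downward 7.29%). When arrays were centred on their median instead of by loess, 6 rose and 4 fell with DBA. All genes turned likewise, from 535 up and 1270 down to 1619 up and 657 down. With NP 2 rose and 8 fell (19.3%, upward 6.73%, downward 12.6%), or 4 and 9 with plain background subtraction. All genes then went from 1172 up and 2198 down to 1943 and 2649. With 3MC 3 rose and 4 fell (11.2%, upward 3.67%, downward 7.49%). With BA 5 rose and 3 fell (5.13%, upward 2.03%, downward 3.10%), or 6 and 2 with median centring. All genes then went from 353 up and 540 down to 1054 and 1225. Without BA array 1 there were 13 that passed with BA, 6 up and 7 down, where 10.5% of all genes did. On BA arrays 2 and 3 alone TFPI2 stood at 1.63, PLAUR at 1.38, F3 at 0.84, F11 at 0.70, HRG at 0.69, TFPI at -0.72 and VTN at -0.93, and all 7 passed. The median ratio of the 34 members was -1.21 with BF, -0.78 with IND (32 members) and -0.38 with CHR, and between -0.18 and 0.07 with the other 6 compounds, whereas the median of all genes lay between -0.01 and 0.04 with every compound.

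**Figure D1:**
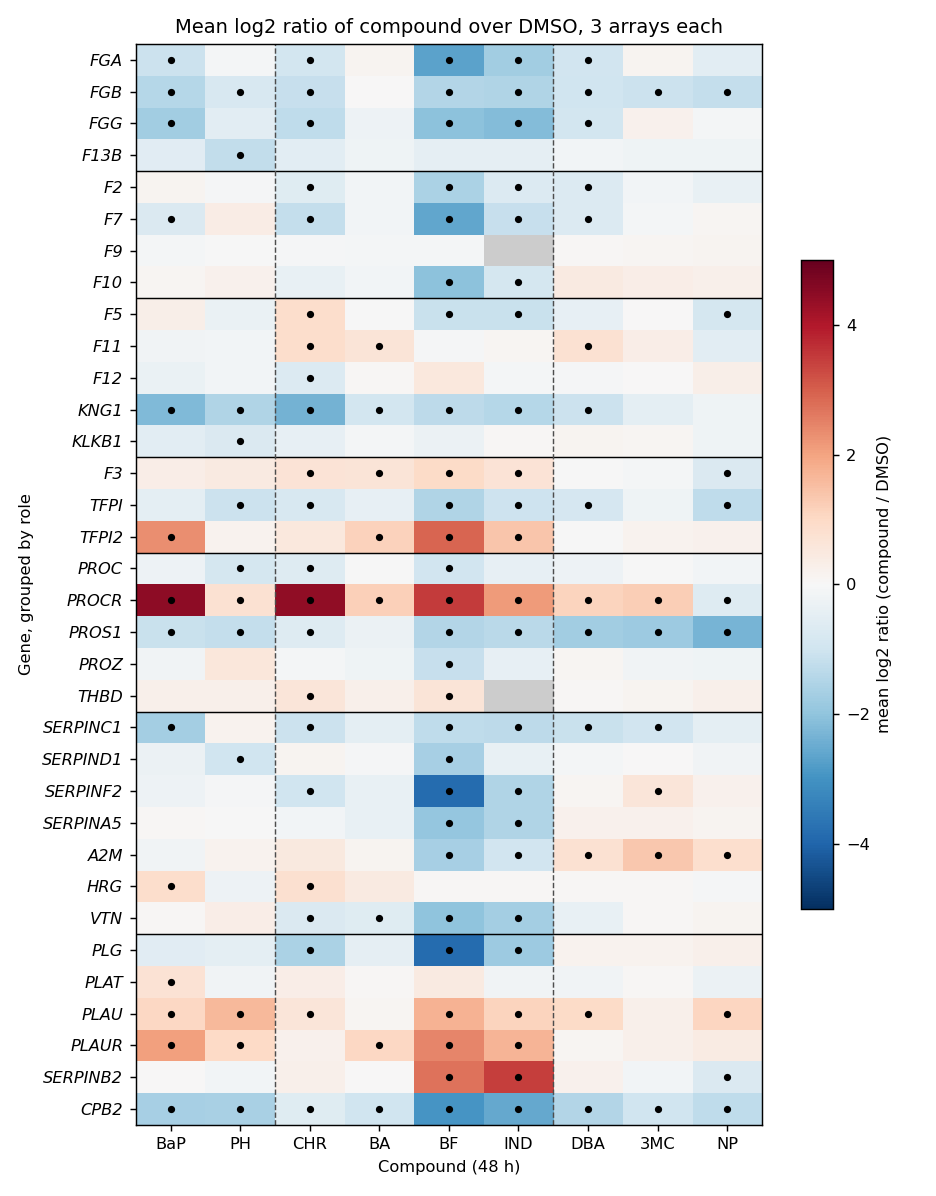
Mean log2 ratio of compound over DMSO for each member (rows, grouped by role) and each compound (columns, 3 arrays each, 48 h), with red for higher and blue for lower than DMSO. Black dots mark pairs that passed, grey marks F9 and THBD, not tested with IND, and dashed lines part columns whose members had unlike DMSO levels. The row of CPB2 is blue and dotted with all 9 compounds, and the row of PROCR is red with 8 of them, highest at 4.48 with BaP.

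Fibrinogen is a protein of 3 kinds of chain, encoded by the adjacent genes FGA, FGB and FGG, and the chains are assembled in the hepatocyte before secretion. All 3 chains fell with BaP, CHR, BF, IND and DBA. FGB alone also fell with PH, 3MC and NP, and none of the chains passed with BA. For FGB, the chain usually held to limit assembly, the arrays read -1.32, -1.51 and -1.43 with BaP, -1.27, -1.06 and -1.08 with CHR, -1.53, -1.47 and -1.45 with BF, and -1.42, -1.57 and -1.49 with IND. All 12 of these values lay below the 3 of PH (-0.86, -0.87 and -0.69). On the arrays of the dim set FGB read -0.94, -0.92 and -1.09 with DBA, -1.09, -1.07 and -1.02 with 3MC, and -1.24, -1.27 and -1.10 with NP. With BA it read 0.23, -0.06 and -0.12, so the arrays fell on both sides of 0. With the 7 compounds of the shared platform with which FGB fell, its adjusted p was between 3.15e-15 with BF and 2.14e-10 with PH. It was 3.68e-07 with IND and 0.839 with BA.

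FGA had its lowest arrays with BF (-2.66, -2.65 and -2.69, a 6.35-fold decrease, adjusted p = 1.2e-17) and next with IND (-1.76, -1.71 and -1.74). With 3MC its arrays stood at 0.21, 0.17 and 0.09, and with PH at -0.16, -0.12 and -0.01. FGG was lowest with IND (-2.02, -2.23 and -2.20, a 4.44-fold decrease) and with BF (-2.08, -2.06 and -2.04). Its 3MC arrays, 0.22, 0.20 and 0.21, were all above 0, while FGB fell on the same arrays. The probes of FGA did not agree on the dim arrays: 2 other probes gave -0.91 and -0.48 with 3MC and -1.76 and -0.98 with NP, where the probe used gave 0.16 and -0.52. FGA and FGG also lost their calls with DBA when arrays were centred on the median (FGA -0.30, FGG -0.17), and FGA lost its call with CHR (-0.47). F13B, which encodes the carrier subunit of the fibrin-crosslinking factor XIII, fell with PH only (-0.98, -1.49 and -1.18) and ranged from -0.57 to -0.15 with the other 8 compounds, none of which passed.

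The fibrinogen genes are shown with the 250 bases before their annotated starts because the genes are neighbours that mostly fell together. Promoter sequences of 29 of 34 members were found in a RefSeq table of assembly GRCh38.p14, and a script searched both strands for 3 motifs. Capitals mark the letters GTTAAT, part of the site of the hepatocyte factor HNF1, read as ATTAAC on the other strand.
FGA (chr4:154590743-154590992, minus strand): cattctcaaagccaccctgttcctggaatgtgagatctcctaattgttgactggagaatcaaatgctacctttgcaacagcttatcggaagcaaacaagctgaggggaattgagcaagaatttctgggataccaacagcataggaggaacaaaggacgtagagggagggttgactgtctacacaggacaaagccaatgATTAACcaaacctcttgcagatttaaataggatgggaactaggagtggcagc
FGB (chr4:154562730-154562979, plus strand): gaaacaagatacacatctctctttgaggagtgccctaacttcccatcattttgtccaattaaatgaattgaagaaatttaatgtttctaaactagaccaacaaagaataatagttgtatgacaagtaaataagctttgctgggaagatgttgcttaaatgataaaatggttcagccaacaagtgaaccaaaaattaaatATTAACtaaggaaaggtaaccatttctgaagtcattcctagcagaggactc
FGG (chr4:154612657-154612906, minus strand): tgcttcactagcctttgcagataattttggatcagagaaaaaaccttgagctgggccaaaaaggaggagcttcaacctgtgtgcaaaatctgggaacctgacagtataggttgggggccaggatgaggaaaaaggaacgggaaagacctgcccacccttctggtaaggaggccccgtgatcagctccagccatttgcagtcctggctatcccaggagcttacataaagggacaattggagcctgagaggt
These letters occurred in FGA, at 52 bases before the start, and in FGB, at 51 bases, and not in the FGG window. Among the 29 members 5 held them (F13B, F2, FGA, FGB and KLKB1), 17.2%, against 6.22% of 27305 promoters of the same length. Of these 5, F13B and KLKB1 fell with PH only, F2 with 4 compounds, FGA with 5 and FGB with 8. A match of letters is a description and shows no bound factor.

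**Figure D2:**
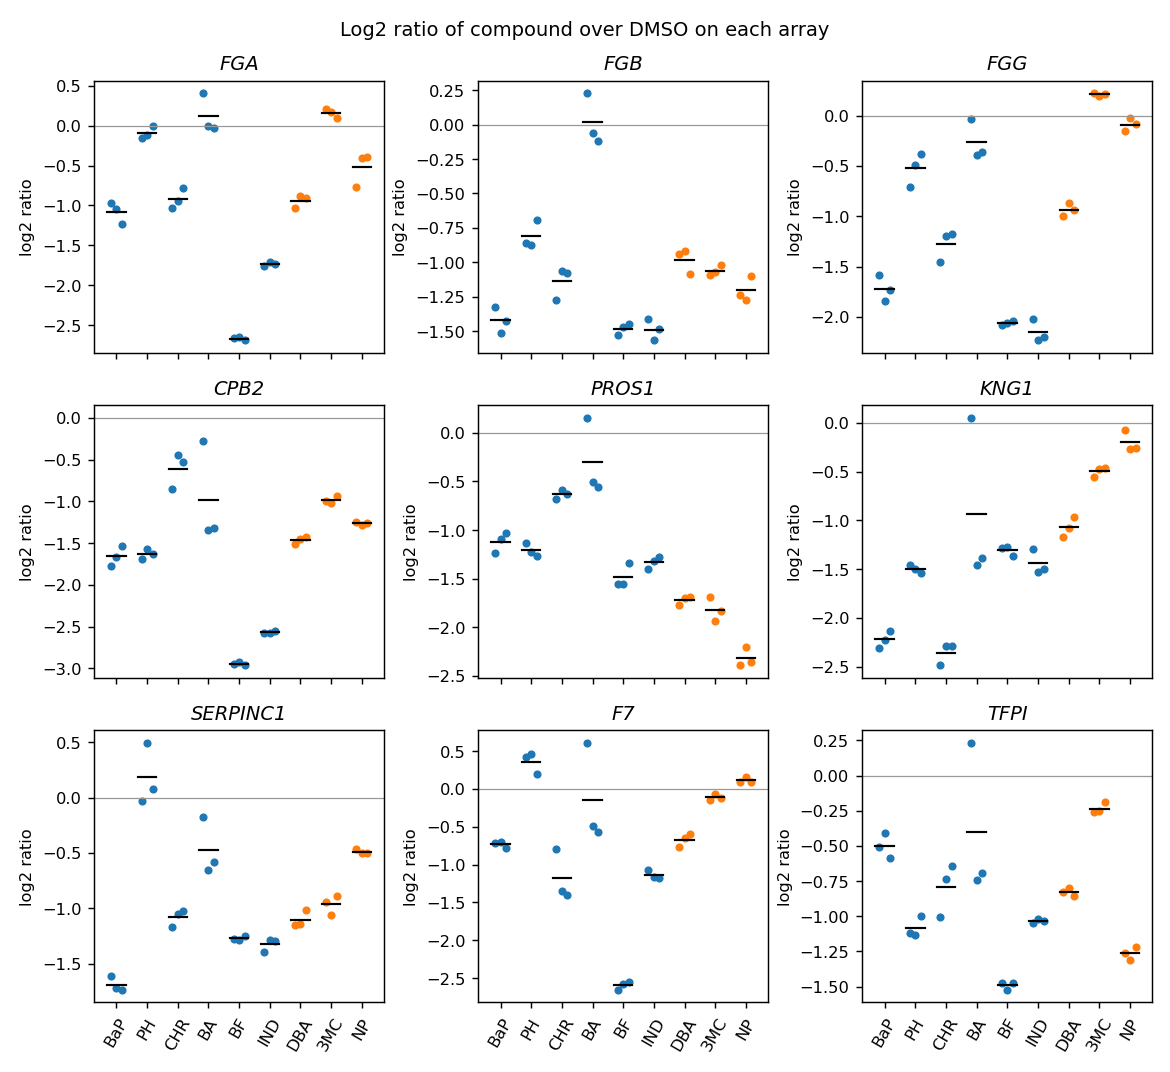
Log2 ratio of compound over DMSO on each array (points) and the mean of 3 arrays (bars) for 9 members made for secretion into plasma, by compound, with the dim DBA, 3MC and NP arrays in orange and a line at 0. FGB lies below 0 on every array except BA array 1, and BA array 1 is the highest of the BA points in all 9 panels.

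The vitamin K dependent procoagulant factors are the proteases that carry the chain from tissue factor to thrombin. F7, whose product binds tissue factor, fell with BaP, DBA, CHR, BF and IND. Its arrays read -2.66, -2.58 and -2.55 with BF, a 6.05-fold decrease (adjusted p = 3.61e-13), -0.79, -1.35 and -1.40 with CHR, -1.07, -1.16 and -1.17 with IND, -0.72, -0.70 and -0.78 with BaP and -0.77, -0.65 and -0.59 with DBA. The BF arrays were far below the others, and the PH arrays (0.42, 0.46 and 0.20) were all above 0 without passing the fold. A dimmer probe of F7 gave -0.79 with CHR and only -0.67 with BF, so the size for F7 depends on the probe. It gave 0.03 with IND, 0.001 with BaP and 0.001 with DBA. The falls with IND, BaP and DBA therefore rest on the probe used.

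F2, the gene of prothrombin, fell with BF (-1.56, -1.65 and -1.51), IND (-0.68, -0.71 and -0.69), DBA (-0.68, -0.70 and -0.64) and CHR (-0.44, -0.69 and -0.69). Its call was lost with median centring for CHR (-0.15), DBA (-0.10) and IND (-0.43), and without CHR replicate 2 or 3 (-0.57 in both cases). Another F2 probe gave -4.78 with BF, -1.55 with CHR and -0.997 with IND, but 0.02 with DBA, where the probe used fell, and between -0.50 with BaP and 0.46 with 3MC with the other 5 compounds. F10, the gene of factor X, read -2.18, -1.99 and -2.02 with BF and -0.80, -0.96 and -0.83 with IND, and fell with both. It passed with none of the other 7 compounds, where its means ran from -0.36 with CHR to 0.45 with DBA. F9, the gene of factor IX, stayed between -0.10 and 0.12 with the 8 compounds. However, its probe was not above background in either channel on the BF arrays, so a change there may have gone unread. F7, F10 and PROZ lie together on chromosome 13, F7 next to F10 and 1 protein-coding gene from F10 to PROZ. All 3 fell with BF, and with BaP, CHR and DBA only F7 did, with BaP and DBA on the probe used alone.

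Factor V is the cofactor of factor X, and the contact factors F11, F12, KLKB1 and KNG1 form a second way of starting the chain on charged surfaces. KNG1, the gene of high molecular weight kininogen, fell with 7 compounds. It was lowest with CHR (-2.48, -2.29 and -2.29, a 5.12-fold decrease, adjusted p = 3.81e-11) and BaP (-2.30, -2.23 and -2.13), followed by PH (-1.45, -1.50 and -1.54) and DBA (-1.17, -1.07 and -0.96). With BA array 1 read 0.05 while arrays 2 and 3 read -1.46 and -1.38, and without array 1 KNG1 stood at -1.42. With IND the compound channel was not above background, so its measured decrease of 2.71-fold is uncertain in size. With BF the probe used (-1.31) was above background in neither channel. A second KNG1 probe gave -1.47 with BF, where DMSO was above background on 3 of 3 arrays and the compound on 1, and -2.76 with CHR, -2.38 with BaP, -1.67 with PH and -0.82 with DBA. With 3MC (-0.49 ± 0.05) and NP (-0.20 ± 0.11) KNG1 did not pass. The gene next to KNG1 is HRG, a histidine-rich plasma glycoprotein that binds plasminogen, and it rose with BaP (0.94, 0.88 and 0.80) and CHR (0.60, 0.93 and 0.90) on the arrays where KNG1 was lowest.

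F5 went both ways. Its arrays were 0.85, 0.91 and 0.92 with CHR, where it rose, and -1.14, -1.16 and -1.05 with BF, -1.16, -1.09 and -1.11 with IND and -0.83, -0.88 and -0.89 with NP, where it fell. No array of CHR overlapped with those of the 3 other compounds. F5 with BF was at -0.53 under median centring and no longer passed. F11, the gene of factor XI, rose with CHR (0.90, 0.83 and 0.95), DBA (0.91, 0.72 and 0.68) and BA (0.58, 0.70 and 0.70), and was the member whose BA arrays agreed most closely among those that passed. Its neighbour KLKB1, the gene of plasma prekallikrein, passed with PH only (-0.80, -0.72 and -0.67), and F12, the gene of factor XII, with CHR only (-0.73, -0.71 and -0.64). A second and dimmer F11 probe, not above background on every array, gave 0.48 with CHR, 0.02 with DBA and 0.19 with BA, so the rise of F11 was not seen at that size by both probes.

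Tissue factor, encoded by F3, starts coagulation, TFPI blocks the complex of tissue factor with factor VII, and TFPI2 is a related inhibitor of several proteases including plasmin. F3 rose with BF (0.97, 0.94 and 0.94), CHR (0.59, 0.70 and 0.78), IND (0.54, 0.76 and 0.73) and BA (0.23, 0.73 and 0.96) and fell with NP (-0.63, -0.67 and -0.90). With PH (0.44 ± 0.02) and BaP (0.32 ± 0.11) all arrays were above 0 but the change was below 1.5-fold. F3 lost its call with IND under median centring (0.58), with BA under no background correction (0.57) and with BA without replicate 3 (0.48). TFPI fell with 6 compounds, from -1.49 ± 0.03 with BF (-1.47, -1.52 and -1.47) and -1.26 ± 0.05 with NP (-1.26, -1.31 and -1.22) to -0.79 ± 0.19 with CHR. Its other means were -1.08 with PH, -1.04 with IND and -0.83 with DBA, where it fell, and -0.50 with BaP, -0.40 with BA and -0.23 with 3MC, where it did not pass. The IND value is from a second TFPI probe, the brighter one there, and the probe used for the other compounds gave -1.41 with IND. On the shared platform the second probe gave -1.44 with PH, -1.12 with NP, -0.61 with BF, -0.52 with DBA, -0.48 with BaP, -0.15 with 3MC and -0.12 with CHR, and with BA it lay on the other side of 0 at 0.32.

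TFPI2 moved the other way from TFPI with BF, where it read 2.90, 2.71 and 3.09, a 7.46-fold increase (adjusted p = 1.86e-11). With BaP its arrays read 1.54, 2.69 and 2.73, with IND 1.32, 1.45 and 1.40, and with BA 0.22, 1.59 and 1.67. Array 1 was the low one with both BaP and BA. The DMSO level of TFPI2 was 8.20 on BaP array 1 and 7.10 and 7.01 on arrays 2 and 3, in log2 intensity, while the compound level was 9.74 to 9.79 on the 3. A dimmer TFPI2 probe, above background in DMSO on none of the BF arrays, gave 1.24 with BF and 0.45 with BaP. CHR (0.55 ± 0.09), PH, DBA, 3MC and NP did not pass, and with DBA the probe was above background in neither channel.

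The protein C system shuts the chain down: thrombin bound to thrombomodulin (THBD) activates protein C (PROC), which PROCR holds at the surface and for which protein S (PROS1) is the cofactor. PROCR had the highest ratios of all members with 5 of the 9 compounds. It read 4.47, 4.50 and 4.46 with BaP, a 22.2-fold increase (adjusted p = 2.9e-14), 4.24, 4.43 and 4.59 with CHR, a 21.4-fold increase, and 3.48, 3.52 and 3.54 with BF, an 11.4-fold increase. The arrays of BaP and CHR overlapped with each other and all lay above those of BF, which in turn lay above those of IND (2.07, 2.06 and 2.23). Then came 3MC (1.30, 1.12 and 1.26), DBA (1.26, 0.85 and 1.18) and PH (0.72, 0.62 and 0.92), whose ranges overlap between 3MC and DBA and between DBA and PH. BA read -0.05, 1.81 and 1.75, and was at 1.78 without array 1. NP was the exception, with -0.65, -0.65 and -0.69, a 1.58-fold decrease (adjusted p = 0.00768). The direction of PROCR was the same in each setting tried for each compound. The DMSO level was 9.91 ± 0.11 on the NP arrays, in log2 intensity, and 8.09 ± 0.14 on the BaP arrays, whereas the compound level was 9.25 ± 0.13 and 12.57 ± 0.15.

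Because PROCR had the largest increase, the 250 bases before its start are given. They hold no match to GTTAAT or to TGANTCA, the letters searched for AP-1. Nor do they match GCGTG, the core of the xenobiotic response element, bound by the aryl hydrocarbon receptor with its partner.
PROCR (chr20:35171822-35172071, plus strand): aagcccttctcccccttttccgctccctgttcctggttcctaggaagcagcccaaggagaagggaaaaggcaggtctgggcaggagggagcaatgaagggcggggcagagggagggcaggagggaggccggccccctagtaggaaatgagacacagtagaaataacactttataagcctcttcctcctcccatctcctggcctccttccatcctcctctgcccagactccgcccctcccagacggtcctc
The core GCGTG occurred in 5 of 29 members (F10, F7, HRG, PLAUR and PLG), 17.2%, against 31.9% of all promoters. No match says only that these letters are not in this window.

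PROS1 fell with every compound except BA (-0.53 without BA array 1, which did not pass), and was lowest with NP (-2.39, -2.21 and -2.36), 3MC (-1.69, -1.94 and -1.83) and DBA (-1.78, -1.70 and -1.69). With BF it read -1.56, -1.56 and -1.34, with IND -1.41, -1.32 and -1.28, with PH -1.13, -1.23 and -1.27, with BaP -1.24, -1.10 and -1.03 and with CHR -0.68, -0.58 and -0.63. All 9 arrays of NP, 3MC and DBA lay below all arrays of the other compounds on this probe. The order did not hold on the other probes of PROS1, which gave -0.48 and -0.34 with NP, -0.26 and -0.19 with 3MC and -0.45 and -0.12 with DBA, but -1.80 and -3.01 with BF and -1.34 and -1.28 with PH. PROS1 has a closely related pseudogene, so which transcripts its probes read is uncertain. With the mean of its probes PROS1 still fell with 3MC at -0.76, the smallest of its 3MC values over the settings.

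PROC fell with BF (-0.98, -0.95 and -0.93), PH (-0.84, -0.89 and -0.86) and CHR (-0.65, -0.64 and -0.68), with SDs of 0.02. Its CHR call was lost with median centring (-0.46) and with the authors' values (-0.56). THBD rose with BF (0.71, 0.61 and 0.64) and CHR (0.50, 0.63 and 0.65), both close to the fold limit, and both calls were lost under median centring (0.50 and 0.54). PROZ, the gene of protein Z, a cofactor for the inhibition of factor X, fell with BF (-1.10, -1.11 and -1.26) and stood at 0.55 ± 0.13 with PH, below the fold limit. With BF, CHR and BaP the receptor PROCR rose while PROS1 fell on the same arrays, and PROC fell with BF and CHR.

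**Figure D3:**
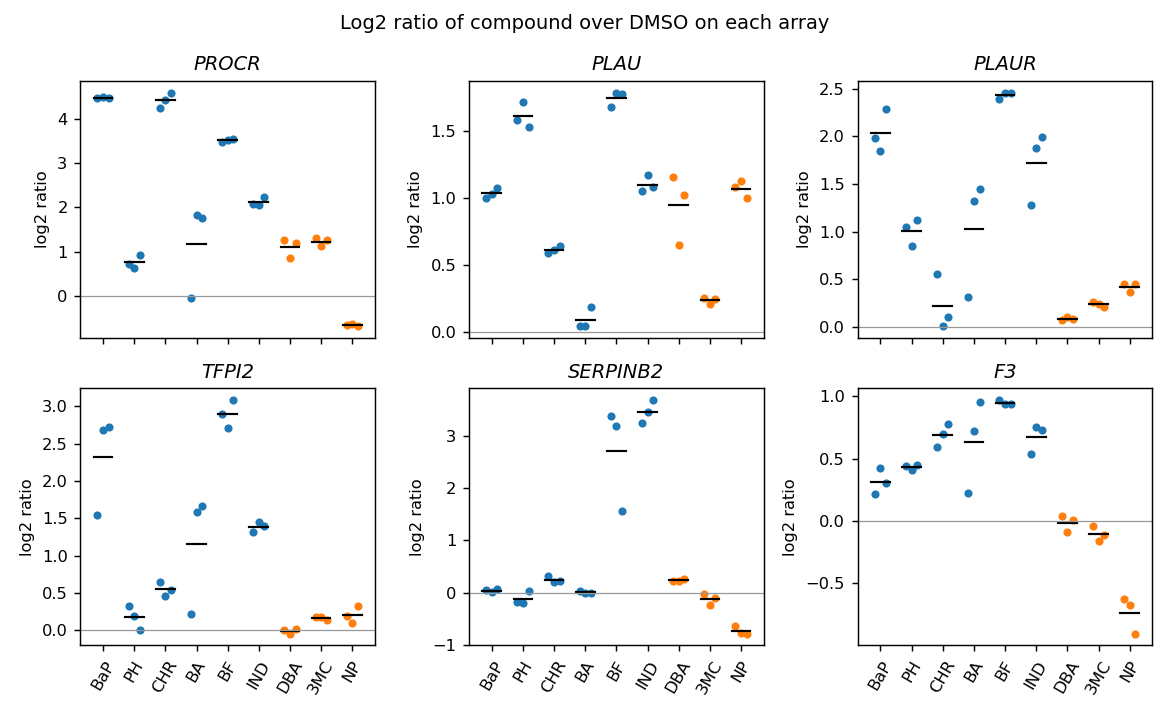
Log2 ratio of compound over DMSO on each array (points) and the mean of 3 arrays (bars) for 6 members with the largest increases or with rises in several compounds, by compound, with the dim DBA, 3MC and NP arrays in orange and a line at 0. PROCR stands above 4 on the BaP and CHR arrays and below 0 with NP, and SERPINB2 is above 1.5 on the BF and IND arrays and below 0.5 on all others, with IND read by a second probe.

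The plasma protease inhibitors and modulators include antithrombin (SERPINC1), heparin cofactor II (SERPIND1), antiplasmin (SERPINF2), protein C inhibitor (SERPINA5) and alpha-2-macroglobulin (A2M). With BF 6 of the 7 genes of this group fell, all except HRG, where 20.3% of all genes fell. With IND 5 of 7 fell, where 13.2% of all genes did. SERPINF2 with BF had the lowest ratio of all members: the arrays read -3.95, -3.83 and -3.81, a 14.5-fold decrease (adjusted p = 2.28e-17). It read -1.50, -1.45 and -1.53 with IND and -0.49, -1.22 and -1.29 with CHR, where array 1 was the smallest change, and rose with 3MC (0.56, 0.64 and 0.66). SERPINC1 fell with 6 compounds and was lowest with BaP (-1.61, -1.72 and -1.74), then IND (-1.39, -1.29 and -1.29), BF (-1.28, -1.28 and -1.25), DBA (-1.15, -1.14 and -1.02), CHR (-1.16, -1.05 and -1.02) and 3MC (-0.94, -1.06 and -0.88). The BaP arrays lay apart below the rest, while those of DBA and CHR overlapped, as did those of CHR and 3MC. With PH SERPINC1 read -0.03, 0.50 and 0.08 and did not pass.

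A2M went both ways. It rose with 3MC (1.30, 1.37 and 1.37), NP (0.89, 0.81 and 0.77) and DBA (0.84, 0.70 and 0.69), and fell with BF (-1.69, -1.70 and -1.64) and IND (-0.87, -0.98 and -0.97). With CHR (0.51 ± 0.07) and BaP (-0.16 ± 0.32) it did not pass. Its spots were partly saturated with other compounds, up to 93% of Cy5 pixels with PH and 58% with BA, so its ratios of 0.19 and 0.12 there may be compressed. The authors' values gave 0.24 for A2M with DBA, which did not pass, and median centring gave -0.43 with IND. SERPINA5 fell with BF (-2.02, -1.98 and -1.84) and IND (-1.47, -1.46 and -1.53), SERPIND1 with BF (-1.70, -1.61 and -1.66) and PH (-1.05, -1.08 and -0.86). VTN, the gene of vitronectin, an adhesive glycoprotein of plasma, fell with BF (-2.05, -1.98 and -2.04), IND (-1.67, -1.80 and -1.64), CHR (-0.73, -0.72 and -0.72) and BA (0.09, -0.92 and -0.95). SERPINA5 did not pass with BA, where its arrays read 0.27, -0.68 and -0.74 and up to 95% of the Cy5 pixels of its spot were saturated on 1 array. Without BA array 1 it fell at -0.71, as did SERPINC1 (-0.62) and SERPINF2 (-0.62).

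Plasminogen (PLG) is turned into plasmin by the tissue activator PLAT and by urokinase (PLAU), whose receptor is PLAUR, and SERPINB2 inhibits urokinase. PLG fell with BF (-3.95, -3.48 and -4.06, a 14.2-fold decrease, adjusted p = 1.86e-17), IND (-1.78, -1.84 and -1.82) and CHR (-1.01, -1.81 and -1.93). The 3 other PLG probes gave -1.73 to -1.81 with BF and -0.56 to -0.04 with CHR, so the size for CHR in particular rests on the probe used. PLG has near-identical copies in the genome, and signal from them cannot be told apart here.

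PLAU rose with 7 compounds: BF (1.68, 1.79 and 1.78, a 3.36-fold increase), PH (1.58, 1.72 and 1.54), IND (1.05, 1.17 and 1.08), NP (1.09, 1.13 and 1.00), BaP (1.00, 1.03 and 1.08), DBA (1.16, 0.65 and 1.03) and CHR (0.59, 0.62 and 0.65). The arrays of BF and PH overlapped and lay above all others, IND, NP, BaP and DBA overlapped, and CHR had the lowest mean, with its arrays at or below the lowest of DBA. With CHR the DMSO channel of PLAU was not above background, so its measured increase of 1.53-fold is uncertain in size. PLAU stood at 0.24 ± 0.03 with 3MC and 0.09 ± 0.08 with BA and did not pass. PLAUR rose with BF (2.39, 2.46 and 2.46, a 5.41-fold increase), BaP (1.98, 1.85 and 2.29), IND (1.28, 1.88 and 2.00), PH (1.04, 0.85 and 1.13) and BA (0.31, 1.32 and 1.45). It was close to 0 with DBA (0.09 ± 0.02), where its probe was above background in neither channel.

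SERPINB2 rose with IND (3.26, 3.46 and 3.69) and BF (3.38, 3.19 and 1.56). The 2 compounds were read by different probes, since the IND platform carries only the second SERPINB2 probe. With IND the DMSO channel was not above background, so the increase was at least 9.96-fold. BF array 3 lay well below its fellow arrays. On the shared platform the second probe gave 5.91 with BF, where its DMSO channel was above background on no array, and 2.29 with BaP, where the probe used gave 2.71 and 0.04. It fell with NP (-0.64, -0.78 and -0.79) on the probe used, and the second probe gave 0.06 there. PLAT passed with BaP only (0.71, 0.77 and 0.67). CPB2, the gene of the fibrinolysis inhibitor activated by thrombin, was lowest with BF (-2.94, -2.92 and -2.96, a 7.69-fold decrease, adjusted p = 3.88e-15) and IND (-2.57, -2.58 and -2.55). BaP (-1.77, -1.67 and -1.54), PH (-1.69, -1.58 and -1.63) and DBA (-1.51, -1.45 and -1.42) followed. NP (-1.25, -1.28 and -1.26) and 3MC (-0.99, -1.02 and -0.94) lay above these, and CHR (-0.86, -0.45 and -0.53) was the smallest decrease. With BA CPB2 read -0.28, -1.34 and -1.32, and was at -1.33 without array 1.

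F3, PLAUR, SERPINB2 and TFPI2 are shown next to each other because they are the 4 members of 29 whose window holds TGANTCA. These letters take in the AP-1 site TGAGTCA and the variant TGAATCA. All 4 members rose with both BF and IND, where 16.1% and 10.5% of all genes rose. How many of all genes with these letters rose was not counted. The capitals mark these letters, and in PLAUR also CACGC, the xenobiotic response core on the other strand.
F3 (chr1:94541760-94542009, minus strand): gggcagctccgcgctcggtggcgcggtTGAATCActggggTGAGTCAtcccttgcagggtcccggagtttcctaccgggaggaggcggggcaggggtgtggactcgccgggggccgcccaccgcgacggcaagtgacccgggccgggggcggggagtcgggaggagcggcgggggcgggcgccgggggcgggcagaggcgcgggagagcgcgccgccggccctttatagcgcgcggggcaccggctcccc
PLAUR (chr19:43670170-43670419, minus strand): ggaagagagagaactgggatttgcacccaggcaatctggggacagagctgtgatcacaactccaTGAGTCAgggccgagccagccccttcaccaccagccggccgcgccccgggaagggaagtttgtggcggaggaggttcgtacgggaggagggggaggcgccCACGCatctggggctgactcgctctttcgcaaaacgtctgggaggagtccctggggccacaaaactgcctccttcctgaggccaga
SERPINB2 (chr18:63887455-63887704, plus strand): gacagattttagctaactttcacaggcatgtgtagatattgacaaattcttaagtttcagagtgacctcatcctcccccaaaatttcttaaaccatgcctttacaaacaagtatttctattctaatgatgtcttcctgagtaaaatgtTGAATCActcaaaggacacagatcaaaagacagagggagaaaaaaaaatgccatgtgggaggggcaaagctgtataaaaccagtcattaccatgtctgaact
TFPI2 (chr7:93890754-93891003, minus strand): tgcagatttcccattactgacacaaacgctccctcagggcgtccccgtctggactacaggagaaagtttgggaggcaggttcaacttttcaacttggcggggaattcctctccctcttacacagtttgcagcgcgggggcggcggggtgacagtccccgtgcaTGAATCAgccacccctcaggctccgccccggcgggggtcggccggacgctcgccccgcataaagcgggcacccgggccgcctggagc
The letters occurred in 13.8% of the 29 members and in 6.6% of all 27305 promoters. F3 held them at 223 (TGAATCA) and 210 bases (TGAGTCA) before the start, PLAUR at 186 (TGAGTCA), SERPINB2 at 102 and TFPI2 at 87 (both TGAATCA). PROCR and PLAU, which also rose with BF and IND, held none in this window, and the window of THBD was not analysed here. A match of letters shows no bound factor, and a part of AP-1 in the ratios was not tested.

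The DMSO channel itself did not read members at the same intensity on all arrays. The array sets differ in brightness, and whether the RNA levels in DMSO differed was not tested. After loess and quantile scaling between arrays, F10 was at 8.44 ± 0.05 on the BaP arrays and 8.30 ± 0.18 on the PH arrays in log2 DMSO intensity, against 11.51 to 12.03 on the DBA, 3MC and NP arrays and 12.39 to 13.33 on the CHR, BA, BF and IND arrays. SERPINF2 was at 9.60 to 10.01 on the BaP, PH, DBA, 3MC and NP arrays and at 12.84 to 13.74 on the CHR, BA, BF and IND arrays. PLG was at 8.74 to 9.74 and at 11.45 to 13.76 on the same groups of arrays. The 2 groups of arrays did not overlap for SERPINF2 or PLG. With BF the compound level of SERPINF2 was 8.98 ± 0.14 and that of PLG 7.62 ± 0.26, both below the DMSO levels of the dimmer group. HRG had the opposite arrangement, with mean DMSO levels of 11.04 to 11.58 with DBA, 3MC and NP and of 6.49 to 8.24 with the other 6 compounds. So did SERPINB2 on the shared platform, with 10.87 to 11.79 against 6.53 to 8.24 with the other 5 compounds of that platform. Its IND arrays read another SERPINB2 probe, which on the DBA arrays was above background in neither channel. IND was scaled on its own, since its platform differs. The part of the DMSO level in the ratios was not tested. Each array set holds its own compounds, so that the set and the compound cannot be told apart in comparisons between sets.

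**Figure D4:**
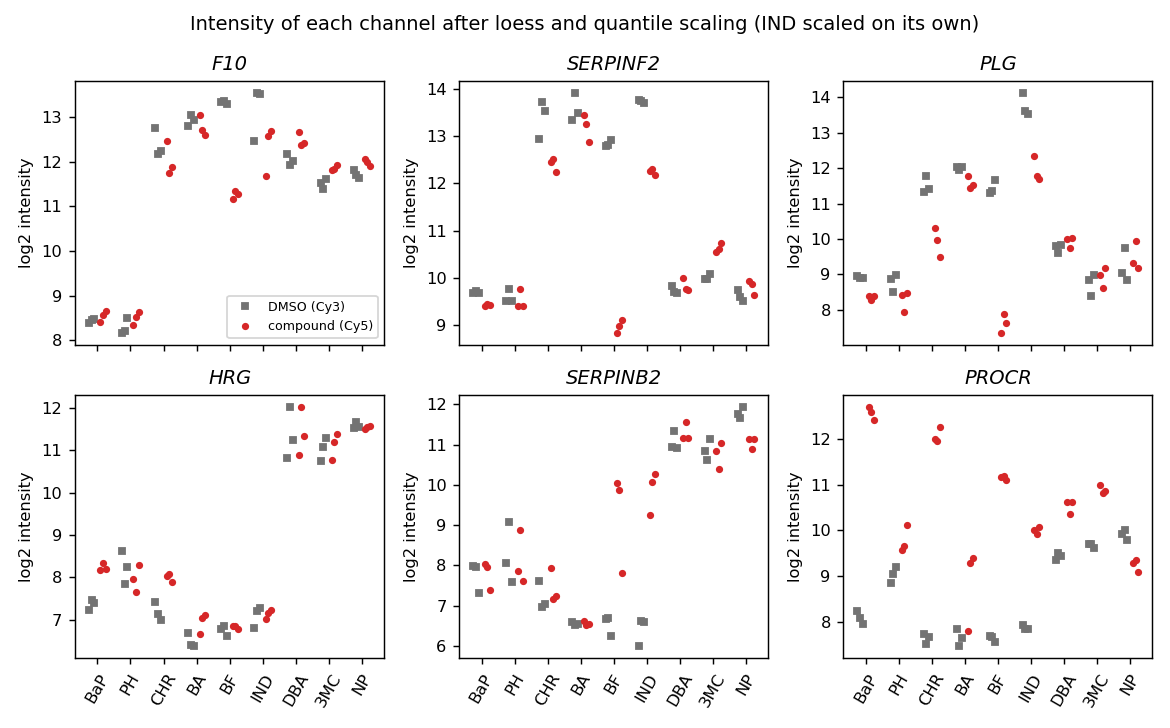
Log2 intensity of the DMSO channel (grey squares) and the compound channel (red circles) on each array for 6 members, by compound, after loess and quantile scaling, with IND scaled on its own. DMSO levels of F10, SERPINF2 and PLG are lower on the BaP and PH arrays than on the CHR, BA, BF and IND arrays, and those of HRG and SERPINB2 are highest with DBA, 3MC and NP, where SERPINB2 with IND is read by another probe than with the other compounds.

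In all, 5 pairs of compounds were compared directly, and differences below are estimates ± SE from limma, adjusted over all genes within each pair. Counts over all genes were taken for the pairs in the main setting only. Splits of members under other settings therefore have no such count beside them. CHR and BA are isomers with the same number of fused rings. CHR was lower than BA for 11 members and higher for 2, where 18.6% of all genes differed in either direction, 9.30% lower and 9.34% higher. The higher ones were PROCR (3.25 ± 0.29, adjusted p = 7.92e-09) and F5 (0.90 ± 0.16), and the lower ones included KNG1 (-1.43 ± 0.23), PLG (-1.16 ± 0.16) and the fibrinogen chains FGB (-1.15 ± 0.09), FGA (-1.04 ± 0.11) and FGG (-1.01 ± 0.10). The other PLG probes went the other way. They gave -0.41, -0.56 and -0.04 with CHR and -0.97, -0.80 and -0.83 with BA over all its arrays. The lower PLG with CHR therefore rests on the probe used. F3 differed by 0.05, with a 95% confidence interval from -0.19 to 0.30, and CPB2 by 0.37 (0.01 to 0.73). Median centring turned the split to 4 higher and 11 lower, and without BA array 1 it was 4 higher and 9 lower. PROCR stood at 4.42 with CHR and at 1.78 on BA arrays 2 and 3. Without BA array 1 the difference was 2.64 for PROCR, 1.24 for F5, -0.93 for KNG1, -1.08 for PLG, -1.05 for FGB and -0.90 for both FGA and FGG, which all passed. CPB2 then differed by 0.72 and passed as higher with CHR, and TFPI2 (-1.08) and PLAUR (-1.16) passed as lower. F3 differed by -0.15 and did not pass.

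BaP and BF are also isomers of each other. BaP was above BF for 17 members and below for 5, where 35.3% of all genes differed, 21.8% higher and 13.5% lower. Of the 17, all except HRG and PROCR fell with BF, and of those only FGA, F7 and CPB2 also fell with BaP. The largest differences were SERPINF2 (3.59 ± 0.17), PLG (3.26 ± 0.16), F10 (2.18 ± 0.11) and VTN (2.06 ± 0.16), and, in the other direction, SERPINB2 (-2.67 ± 0.26). PROCR was higher with BaP by 0.96 ± 0.29 (adjusted p = 0.00573). The difference of KNG1 (-0.91 ± 0.23) comes from the probe whose BF spots were above background in neither channel, and the second KNG1 probe gave -2.38 with BaP and -1.47 with BF. FGB differed by 0.06 (95% interval -0.12 to 0.24). PLAUR and TFPI2 differed by -0.39 (-0.80 to 0.01) and -0.58 (-1.17 to 0.01), and did not pass.

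BaP has more fused rings than PH. BaP was higher for 9 members and lower for 7, where 21.8% of all genes differed, 12% higher and 9.80% lower. With median centring the split was 10 and 5. PROCR (3.72 ± 0.29), TFPI2 (2.15 ± 0.28), HRG (1.14 ± 0.16), PLAUR (1.04 ± 0.19) and PLAT (0.89 ± 0.09) were higher with BaP. SERPINC1 (-1.87 ± 0.11), FGG (-1.19 ± 0.10), F7 (-1.09 ± 0.20) and FGA (-0.99 ± 0.11) were lower. The dimmer F7 probe gave 0.001 with BaP and 0.27 with PH. CPB2 differed by -0.03 (95% interval -0.39 to 0.33) and PROS1 by 0.09 (-0.18 to 0.35).

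BF was lower than CHR for 19 members and higher for 6, where 28.3% of all genes differed, 17.1% lower and 11.2% higher. The lowest were SERPINF2 (-2.86 ± 0.17), CPB2 (-2.33 ± 0.17), PLG (-2.24 ± 0.16), A2M (-2.18 ± 0.10) and F5 (-2.01 ± 0.16, adjusted p = 5.71e-10), and the highest were SERPINB2 (2.46 ± 0.26), TFPI2 (2.35 ± 0.28) and PLAUR (2.22 ± 0.19). The difference of PLAU (1.13 ± 0.09) rests on spots not above background in DMSO with CHR. That of KNG1 (1.05 ± 0.23) rests on spots of the probe used that were above background in neither channel with BF, and the second KNG1 probe gave -1.47 with BF and -2.76 with CHR. SERPINC1 differed by -0.19 ± 0.11 and THBD by 0.06 ± 0.07, and neither passed. DBA was higher than NP for 5 members and lower for 4, where 11.3% of all genes differed, 6.83% higher and 4.52% lower. PROCR (1.76 ± 0.29), F11 (1.28 ± 0.06), SERPINB2 (0.97 ± 0.26), F3 (0.72 ± 0.12) and PROS1 (0.60 ± 0.13) were higher, and KNG1 (-0.87 ± 0.23), FGG (-0.84 ± 0.10), F7 (-0.78 ± 0.20) and SERPINC1 (-0.61 ± 0.11) were lower. Other probes of F11, SERPINB2, F7, FGG and PROS1 gave smaller differences. With DBA and NP they read 0.02 and 0.03 for F11, 0.01 and 0.06 for SERPINB2, and 0.001 and 0.05 for F7. FGG read -0.61 and -0.45. PROS1 read -0.45 and -0.12 with DBA, against -0.48 and -0.34 with NP. The second KNG1 probe kept its direction, at -0.82 and -0.22. With median centring the split was 11 higher and 1 lower.

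**Figure D5:**
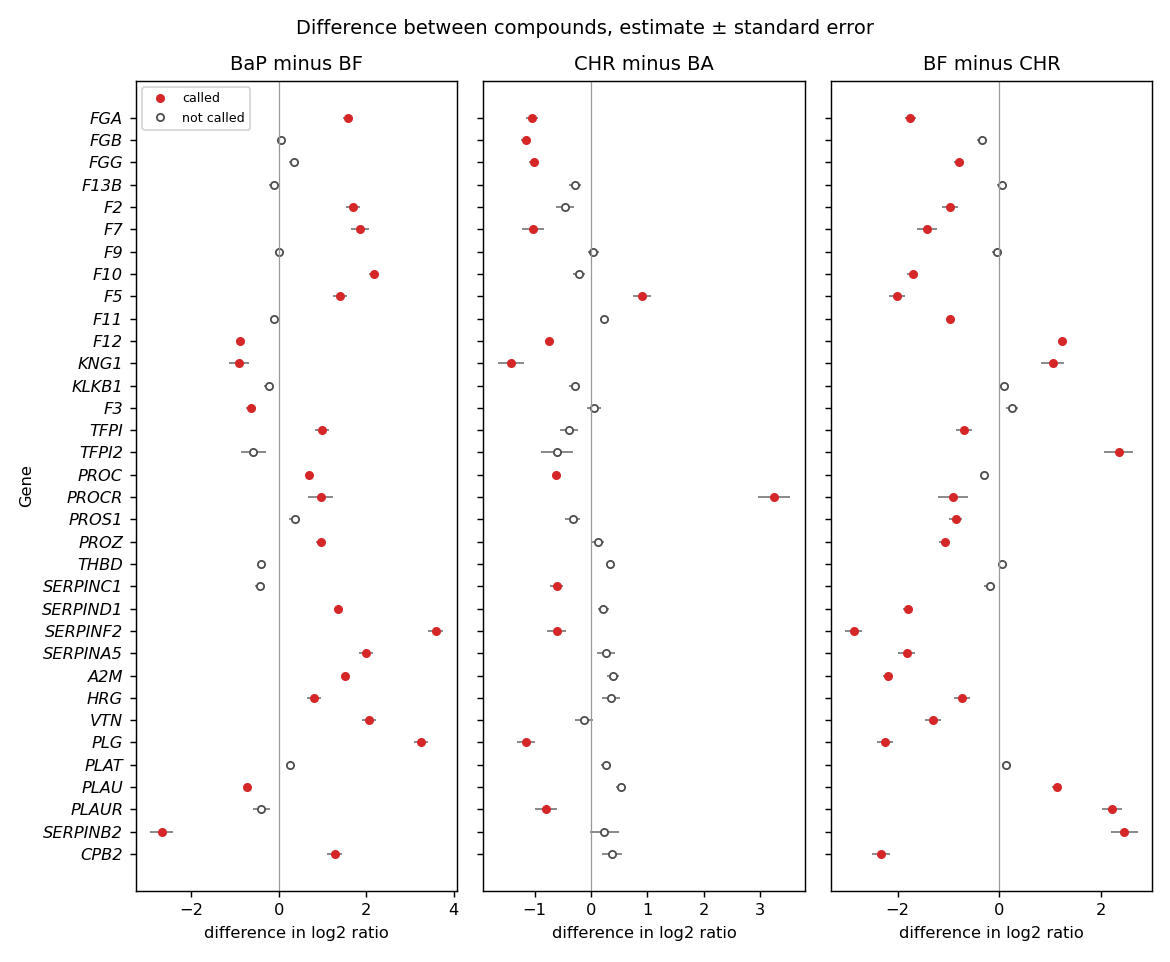
Difference in log2 ratio between compounds for each member (rows), as estimate ± standard error, for BaP minus BF, CHR minus BA and BF minus CHR, with filled red points for differences that passed. SERPINF2 and PLG lie farthest to the right for BaP minus BF at 3.59 and 3.26, and PROCR stands alone at 3.25 for CHR minus BA.

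Other genes of the pathway were read from a list of 22 that are no members. SERPINE2, an inhibitor of thrombin and urokinase, rose with all 9 compounds, from 0.71 ± 0.06 with NP to 2.79 ± 0.07 with BaP, and F2RL1, a receptor cleaved by proteases of the chain, with 7. In all, 7 of the 22 rose and 1 fell with BaP, 7 and 2 with CHR, 6 and 4 with BF, 5 and 1 with PH, 4 and 3 with NP, 4 and 0 with BA, 2 and 1 with 3MC, 2 and 0 with DBA, and 7 and 1 of 19 with IND. The shares of all genes given above for each compound apply to this list and to those below. The list median ran from -0.08 with BF to 0.17 with IND, against -1.21 and -0.78 for the members.

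Of the 10 hepatocyte markers outside the pathway all 10 fell with BF (median -1.88), 8 with IND (median -1.42), 7 with BaP (median -0.83) and 2 with BA (median -0.47), and none rose with these. With CHR 2 rose and 5 fell (median -0.58), with NP 2 and 4 (median -0.14), with DBA 1 and 4 (median -0.0025), with PH 1 and 2 (median 0.03) and with 3MC 2 and 2 (median 0.16). Of 14 hepatocyte transcription factors 7 fell with BF, 6 with CHR and 2 with IND, while 1 rose with CHR, 2 with IND and 4 with PH. HNF4A, which is in both lists, stood at -2.02 ± 0.10 with BF, where its compound channel was above background on 0 of 3 arrays, and at -0.76 ± 0.40 with CHR, and fell with both. It was at -0.01 ± 0.06 with IND and rose with PH (0.66 ± 0.14). Their part in the ratios of the members was not tested. CYP1A1, a known target of the aryl hydrocarbon receptor, was read as a check of the treatment. It rose with 8 compounds, from 2.63 ± 0.28 with PH to 6.23 ± 0.14 with BF, with saturated spots for several compounds, and did not pass with NP (0.47 ± 0.05).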

How the data were processed

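Each array hybridised Cy5-labelled RNA of HepG2 cells given a compound for 48 h with Cy3-labelled RNA of cells given DMSO, per the labels. The deposited scanner files hold spot intensity in both channels, its background and its spread, and the percent of saturated pixels, per the file headers. The authors' deposited value table holds log2 ratios. It served as an alternative for 20 of 27 arrays, whose columns correlated with the scanner ratios at 0.657 to 0.972. The other 7 columns (r -0.00487 to 0.00723) were not used, and the centring the authors applied is not given in the sources used here. There were 0 columns without a sample.

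Intensities were corrected by normexp (offset 50) and loess within arrays in limma 3.58.1 (R 4.3.3), with control spots weighted 0 and spots flagged at -75 or lower dropped. Probes were kept where a channel lay over 2 background SDs above background for a minimum of 2 of the 3 arrays of any 1 compound. The brightest kept probe stood for a gene. The 24 shared-platform arrays were fitted together and the 3 IND arrays alone, with Benjamini-Hochberg adjustment over all genes. Probes were named from RefSeq tables: of 41000 probes on the shared platform, 22778 were named by accession, 2729 by symbol and 1348 by an older symbol. On simulated data, 99% to 100% of 2-fold changes against DMSO were recovered (89% with IND). The simulated noise had the same spread per gene for all compounds of the shared platform. Recovery therefore does not describe BA, whose median SD over the members was 0.306, against 0.064 without BA. Any member could be named. Array values were given for members that passed with most compounds or had the 3 highest or lowest means of a compound, and for members of the same role. From other lists at most 4 genes were named by size. A result for 1 gene of those lists is not reported here. The members and lists were chosen with earlier results of these data known. Array numbers did not pair the arrays: deviations correlated at 0.00347 on average between compounds for the same number and at -0.00143 for different numbers.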

Additional observations from a re-analysis of the deposited data

Results flagged for a closer look

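F5, the gene of coagulation factor V, was picked out because its response had opposite signs with 2 compounds. BF minus CHR was -2.01 on the log2 scale (limma, adjusted p = 5.71e-10), with F5 at -1.12 with BF, lower on 3 of 3 arrays, and 0.90 with CHR, higher on 3 of 3 arrays.

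PROCR, the protein C receptor, was picked out for the same reason. DBA minus NP was 1.76 (limma, adjusted p = 3.97e-05), with PROCR at 1.10 with DBA, higher on 3 of 3 arrays, and -0.66 with NP, lower on 3 of 3 arrays. Groups of 3 arrays were too small for the search for single outlying arrays.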

How the results depend on the processing

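Counts are of members that passed. Shares of all genes were not computed by adjusted p alone, at 2-fold or without an array other than BA array 1. Counts there show only how the number of members moved with the setting. BA gave 8 with all arrays, 13 with array weights, 4 with the authors' values, 0 when fitted alone and 6 to 13 when 1 array was left out, the 13 being without BA array 1. Over all genes BA gave 353 up and 540 down with all arrays, and 716 and 1062 with array weights. It gave 255 and 350 with the authors' values, 0 and 0 alone, and 789 and 1038 without BA array 1. For BA the authors' values rest on arrays 1 and 2 only, and array 1 is the one that stood apart. By adjusted p alone the counts were 27 with BaP, 15 with 3MC, 24 with NP, 26 with PH, 19 with BA, 23 for CHR minus BA and 18 for DBA minus NP. At 2-fold they were 5 with DBA, 4 with 3MC, 5 with NP, 7 with CHR, 7 with PH, 3 with BA, 7 for CHR minus BA, 13 for BaP minus BF, 7 for BaP minus PH and 2 for DBA minus NP. With the mean of a gene's probes DBA minus NP gave 5. Leaving out 1 array gave 14 to 15 members with BaP, 14 with DBA, 7 with 3MC, 10 to 11 with NP, 20 to 22 with CHR, 12 to 14 with PH, 27 with BF and 23 with IND. For the pairs it gave 12 to 14 for CHR minus BA, 21 to 23 for BaP minus BF, 13 to 17 for BaP minus PH, 25 for BF minus CHR and 8 to 9 for DBA minus NP, and 33 to 34 for the F test. Of 137 passing pairs of member and compound, 0 reversed direction in the settings run, and pairs that did not pass were not counted. Median centring lost 22, the mean of probes 8 and 2-fold 52. The authors' values lost 8 of 113. CPB2 with CHR did not pass without CHR replicate 1 (-0.49), nor did VTN with BA without replicate 2 (-0.43) or 3 (-0.41). With the array number as a replicate block the counts of members were the same: 14 with BaP, 14 with DBA, 7 with 3MC, 10 with NP, 22 with CHR, 12 with PH, 8 with BA, 27 with BF, 13 for CHR minus BA, 22 for BaP minus BF, 16 for BaP minus PH, 25 for BF minus CHR, 9 for DBA minus NP and 33 for the F test. The block could not be fitted for IND alone. The number of arrays, 3 per compound, limits the precision. Ratios of members above background in neither channel are uncertain, and that of KNG1 with BF is counted as a fall all the same.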
